A study of Mus musculus with 22 samples.

Results

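Nnmt, Aox1, Aox3, Nampt and Nadk2 are 5 of the 24475 genes measured in these mouse livers, grouped by name because they methylate, oxidise, salvage or phosphorylate nicotinamide and its products. Liver polyA RNA was sequenced in 22 libraries from mice lacking the glucagon gene (Gcg KO) and from wild-type (WT) mice. The groups were Gcg KO (libraries 4 to 6) and WT (libraries 1 to 3) with no infusion, Gcg KO (libraries 11 to 14) and WT (libraries 7 to 10) at 30 µg/d of infused glucagon, and Gcg KO (libraries 19 to 22) and WT (libraries 15 to 18) at 150 µg/d. Infused groups thus had 4 libraries each and uninfused groups 3. The sources used here do not give the strain, age or sex of the mice, how long the infusion lasted or what the uninfused mice received. Nor do the labels say whether the libraries came from separate mice, so a p-value measures the spread of libraries, which may be technical.

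Levels are in RPKM, which counts reads relative to transcript length and library size. Steps between low values put the libraries at an estimated 11.16 to 17.6 M reads, with a median of 13.7 M. Gcg, which liver is not known to transcribe, was listed at 0 in all 22 libraries, so the genotype labels could not be checked from it. Hepatocyte markers were high everywhere, with the 5 found in the table summing to 30104 to 72087 RPKM. Libraries 4 (Gcg KO, no infusion) and 13 (Gcg KO, 30 µg/d) stood apart in sex-biased liver genes. Their mean log2(RPKM + 1) over 11 male-biased genes was 3.64 and 4.87, and over 13 female-biased genes 3.44 and 2.08. The 4 Y-linked genes summed to 29.9 to 49.8 RPKM over all 22 libraries and did not set those libraries apart. Xist, the gene of X inactivation, reached at most 0.0301 RPKM in any library. Where leaving out both libraries ended or added a call of a gene named below as a member, a pathway gene or an endothelial marker, this is given beside it.

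Nicotinamide is the form of vitamin B3 that is released whenever sirtuins, PARP enzymes or CD38 break down NAD. Nampt, the rate-limiting enzyme of salvage, returns nicotinamide to NAD by way of nicotinamide mononucleotide, while Nnmt, a cytosolic enzyme abundant in liver, adds a methyl group from S-adenosylmethionine and so commits nicotinamide to excretion. The aldehyde oxidases Aox1 and Aox3, which carry a molybdenum cofactor, oxidise methylnicotinamide to pyridones and also clear many drugs, and Nadk2, the mitochondrial NAD kinase, turns NAD into NADP. Glucagon acts on hepatocytes through a receptor that raises cyclic AMP, the signal read by transcription factors at cAMP response elements.

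The 5 genes lie on 4 chromosomes of GRCm38. Nnmt is at chr9:48538002-48607655 on the minus strand, and Nampt, Nadk2, Aox1 and Aox3 are on plus strands at chr12:32820335-32853369, chr15:9071260-9110496, chr1:58029809-58106410 and chr1:58113135-58202221. Aox1 and Aox3 are neighbouring paralogs, followed on chr1 by Aox4 and Aox2, which reached at most 0.0164 and 0.0492 RPKM in these livers. Annotated transcripts of Aox1 and Aox3 shared no run of 30 or 50 bases. Aox1 shared 50-base runs with 194 other genes, at most 0.362% of its runs with any one of them. The 50-base runs of Nnmt, Aox3, Nampt and Nadk2 occurred in no other gene's transcripts.

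The promoter windows of the 3 genes present in the RefSeq promoter table (GRCm38.p6) are shown. They were chosen because the ratio of the neighbouring Aox genes was highest in 1 group and because Nampt differed between genotypes. Each covers 250 bases before the start site the table uses and 50 after it, on the plus strand, and is written 5′ to 3′ with the searched motifs that were found in capitals. The windows are chr1:58029719-58030018 for Aox1, chr1:58112886-58113185 for Aox3 and chr12:32820085-32820384 for Nampt. The start site used lies 160 bases downstream of the gene start given above for Aox1, 1 base downstream for Aox3 and at it for Nampt, so positions below are counted from the site used. Matching was by symbol, and 3 of the 5 members matched, without Nnmt and Nadk2.
Aox1: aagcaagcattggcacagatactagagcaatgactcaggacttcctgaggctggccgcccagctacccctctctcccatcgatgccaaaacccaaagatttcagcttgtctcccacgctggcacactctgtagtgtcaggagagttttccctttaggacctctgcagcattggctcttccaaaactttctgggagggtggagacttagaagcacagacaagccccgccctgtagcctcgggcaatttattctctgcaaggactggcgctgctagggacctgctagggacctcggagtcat
Aox3: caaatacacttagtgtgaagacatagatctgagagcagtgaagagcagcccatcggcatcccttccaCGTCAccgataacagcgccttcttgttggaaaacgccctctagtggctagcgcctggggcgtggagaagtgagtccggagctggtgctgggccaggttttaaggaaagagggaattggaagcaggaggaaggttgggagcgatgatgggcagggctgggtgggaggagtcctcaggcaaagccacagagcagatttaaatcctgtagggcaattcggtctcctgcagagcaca
Nampt: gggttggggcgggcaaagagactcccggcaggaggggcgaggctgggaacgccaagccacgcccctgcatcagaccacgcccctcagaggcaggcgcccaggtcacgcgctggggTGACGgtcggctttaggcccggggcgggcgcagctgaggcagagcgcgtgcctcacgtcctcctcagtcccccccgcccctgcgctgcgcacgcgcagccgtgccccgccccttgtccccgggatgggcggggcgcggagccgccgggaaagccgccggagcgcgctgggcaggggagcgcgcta
Exact matches to 6 motifs were searched on both strands. These were the full cAMP response element TGACGTCA, its core TGACG (contained in the full element), the FOXO motif GTAAACA, the E-box CACGTG, the C/EBP motif TTGCGCAA and the TATA box TATAAA. The core TGACG was found once in Aox3, on the minus strand at position −183, where the plus strand reads CGTCA, and once in Nampt, on the plus strand at −135. None of the 6 motifs was found in the Aox1 window. Over all 32851 windows in the table, 20.8% held the core, 1.79% the full element, 3.65% the FOXO motif, 7.15% the E-box, 0.183% the C/EBP motif and 13.6% the TATA box. A match describes these letters only. The GC content was 76.3% in the Nampt window, 54.3% in Aox1 and 55.0% in Aox3, against a median of 52.7% over all windows.

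The 5 genes were all well expressed, and all passed the filter of a mean of at least 0.5 RPKM that left 11590 genes for testing. Aox3 had the highest mean over the 22 libraries, 261 RPKM, ahead of Nnmt at 151 RPKM, Nadk2 at 49.1 RPKM, Aox1 at 23.9 RPKM and Nampt at 23.7 RPKM. Nnmt varied most, with its highest library at 355 RPKM and its lowest at 1.52 RPKM, a 234-fold span, and Nadk2 varied least, between 33.1 and 62.2 RPKM. Differences between the 6 groups held 83.1% of the log2 variance of Nnmt, 70.2% of that of Nampt, 66.4% of that of Aox1, 60.5% of that of Aox3 and 17.6% of that of Nadk2. The median over all genes tested was 30.4%. Fold changes below are differences of log2(RPKM + 1) between groups from limma fitted to all 22 libraries at once, with moderated standard errors (SE), and adjusted p-values are Benjamini-Hochberg values over all 11590 genes. A gene is said to be called where the adjusted p was under 0.05.

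**Figure D1:**
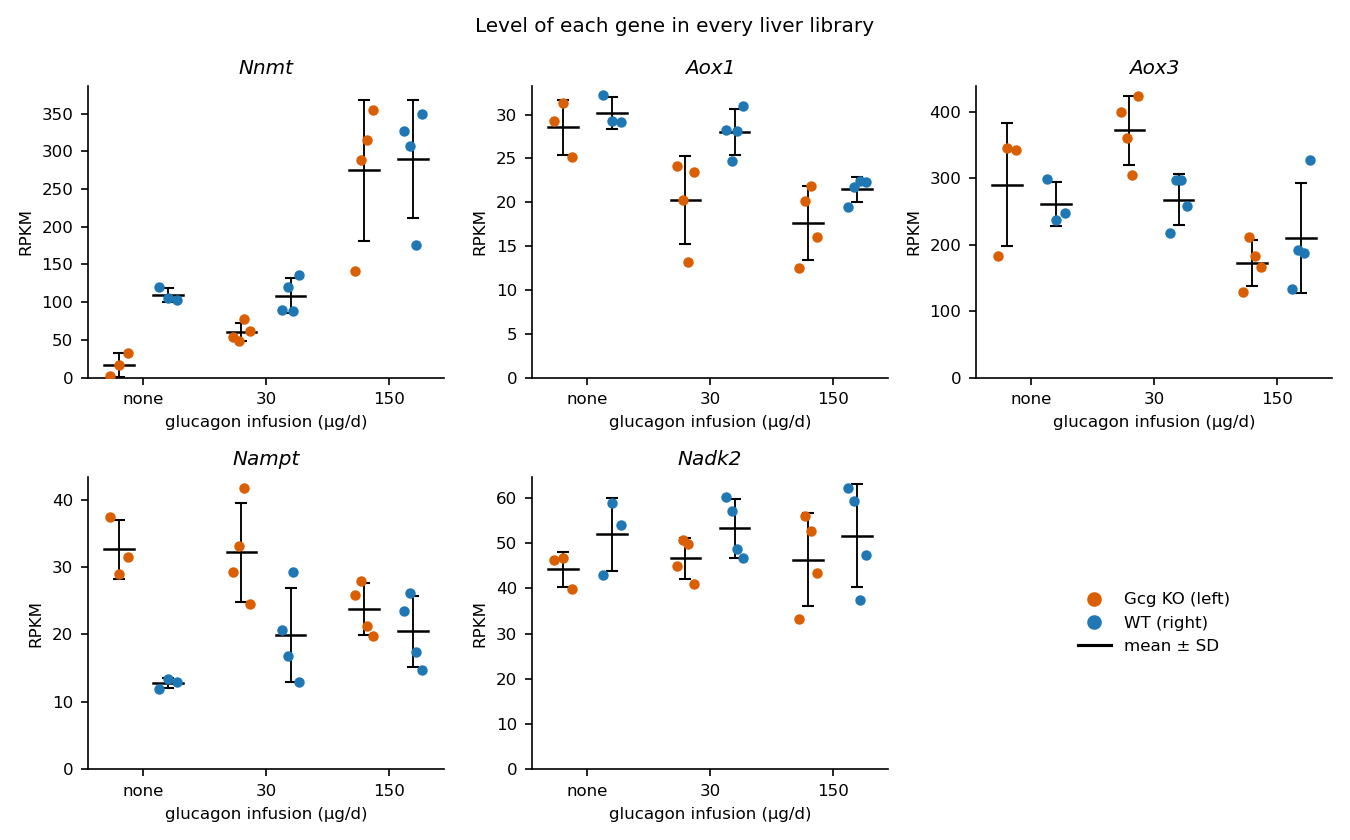
RPKM of the 5 genes in each of the 22 libraries by genotype and infusion, with 1 point per library and the bar at the group mean. Nnmt lies between 1.52 and 32.8 RPKM in the uninfused Gcg KO libraries and between 141 and 355 RPKM in Gcg KO libraries at 150 µg/d, while Nadk2 stays between 33.1 and 62.2 RPKM throughout.

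Nnmt, the nicotinamide N-methyltransferase, was lower in uninfused Gcg KO liver than in uninfused WT liver, and at 150 µg/d its levels in the 2 genotypes overlapped. Uninfused Gcg KO libraries 4, 5 and 6 had 1.52, 16.4 and 32.8 RPKM, against 120.1, 106 and 103 RPKM in WT libraries 1, 2 and 3. Every Gcg KO library was below every WT library, and the Gcg KO values themselves were far apart, while the WT values were close together. The fold change was −3.27 ± 0.586 (SE) on the log2 scale, with an adjusted p of 0.0146, the 16th smallest p of the 11590. Of all genes tested, 1.54% were called in this comparison and 24.8% had groups that did not overlap. In bulk liver, fewer cells of a type and less RNA per cell cannot be told apart. The difference moved to −2.18 (adjusted p = 0.0184) without library 4. The call was lost without WT library 2 or 3 (adjusted p = 0.0583 and 0.0679) and when the 2 groups were fitted alone (adjusted p = 0.138).

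In Gcg KO liver, Nnmt was higher at each dose of glucagon. Its mean was 16.9 ± 15.6 RPKM (SD, n = 3) with no infusion, 60.5 ± 12.2 RPKM (n = 4) at 30 µg/d and 275 ± 93.4 RPKM (n = 4) at 150 µg/d. Libraries 11 to 14 at 30 µg/d had 54.4, 49.0, 77.0 and 61.7 RPKM, and libraries 19 to 22 at 150 µg/d had 141, 288, 315 and 355 RPKM. The 3 Gcg KO groups did not overlap one another. At 150 µg/d against no infusion the log2 fold change was 4.51 ± 0.548 (adjusted p = 0.000715), which was the smallest p of all 11590 genes in that comparison, where 2.72% of genes were called and 13.5% had groups without overlap. This call held without each of the 7 libraries in turn, at 3.42 to 5.30, but not when the 2 groups were fitted alone (adjusted p = 0.125). At 30 µg/d the log2 fold change was 2.41 ± 0.548, with an adjusted p of 0.0983 that was not called, and it was 1.32 without library 4 (adjusted p = 0.372) and 3.19 without library 6 (adjusted p = 0.0076). Only 0.0863% of genes were called at that dose, and 8.76% had groups without overlap. Between 150 and 30 µg/d in Gcg KO liver it was 2.10 ± 0.508 (adjusted p = 0.0651), beside 0.544% of genes called and 6.29% without overlap. That difference was called without library 19 (2.40, adjusted p = 0.0228) and without libraries 4 and 13 (2.22, adjusted p = 0.0017), where 201 genes were called.

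In WT liver Nnmt at 30 µg/d overlapped its levels with no infusion and lay above them at 150 µg/d, a difference that did not pass the test. WT libraries 7 to 10 at 30 µg/d had 89.5, 120.3, 88.5 and 136 RPKM, on both sides of the uninfused WT values. WT libraries 15 to 18 at 150 µg/d had 327, 307, 175 and 349.6 RPKM, all above every uninfused WT library. The log2 fold change at 150 µg/d was 1.35 ± 0.548 (95% interval 0.20 to 2.5, adjusted p = 0.326), in a comparison where 0.293% of genes were called and 14.5% did not overlap. At 30 µg/d it was −0.04 (interval −1.18 to 1.11), and 7.49% of genes had WT groups without overlap there. Under 150 µg/d the genotypes overlapped, with a Gcg KO minus WT difference of −0.11 on the log2 scale (interval −1.17 to 0.95). Under 30 µg/d every Gcg KO library lay below every WT library, with a difference of −0.83 (interval −1.89 to 0.24, adjusted p = 0.545), where 6.32% of genes did not overlap and 0.328% were called. The response to 150 µg/d was larger in Gcg KO than in WT liver by 3.16 ± 0.776 on the log2 scale, but this difference of responses was not called (adjusted p = 0.182), and no gene was. It was 2.08 without library 4 and 3.95 without library 6, again not called (adjusted p = 0.324 and 0.0609). Uninfused Gcg KO and WT livers are the shared baselines of these responses, so a low baseline enters each Gcg KO response and the genotype difference alike. Of adipocyte markers, Lep was at 0 in every library and Adipoq reached at most 0.288 RPKM. All 5 adipocyte markers summed to 0 to 3.0 RPKM at 150 µg/d and 0.185 to 10.9 RPKM with no infusion in Gcg KO liver.

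Aox1, the aldehyde oxidase found widely across mouse tissues, was lower in infused than in uninfused Gcg KO liver and did not separate the uninfused genotypes. Libraries 4, 5 and 6 (Gcg KO, no infusion) had 29.3, 31.3 and 25.1 RPKM, against 32.3, 29.2 and 29.1 RPKM in WT libraries 1 to 3. These groups overlapped, and the difference was −0.08 on the log2 scale (interval −0.47 to 0.31). In Gcg KO liver Aox1 had 24.1, 20.3, 13.2 and 23.4 RPKM at 30 µg/d (libraries 11 to 14) and 12.6, 20.2, 21.8 and 16 RPKM at 150 µg/d (libraries 19 to 22). All 8 infused Gcg KO libraries were below the 3 uninfused ones, and the 2 doses overlapped each other. Of all genes tested, 8.76% at 30 µg/d and 13.5% at 150 µg/d also did not overlap their uninfused Gcg KO levels. At 150 µg/d the fall was called, at −0.69 ± 0.173 on the log2 scale (adjusted p = 0.0386), beside 2.72% of all genes called. It was not called at 30 µg/d, at −0.51 ± 0.173 (adjusted p = 0.329). The call at 150 µg/d was lost without library 4, 5, 19 or 22 (adjusted p up to 0.132), with no filter on low values (0.0647), without libraries 4 and 13 (0.0565) and with the 2 groups fitted alone (0.194).

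In WT liver Aox1 had 28.2, 24.7, 28.2 and 31.0 RPKM at 30 µg/d and 19.4, 21.8, 22.4 and 22.3 RPKM at 150 µg/d. All 4 WT libraries at 150 µg/d were below all WT libraries at 30 µg/d and with no infusion. Of all genes tested, 3.79% did not overlap between the 2 doses in WT liver, and 14.5% did not between 150 µg/d and no infusion. The difference of WT at 150 µg/d from uninfused WT was −0.47 ± 0.173 (adjusted p = 0.291), which was not called, and an exact two-sided permutation test on RPKM gave a difference of −8.72 RPKM with p = 0.0286. The responses of the 2 genotypes to 150 µg/d differed by −0.22 on the log2 scale (interval −0.73 to 0.30). Under 30 µg/d every Gcg KO library lay below every WT library in Aox1, as 6.32% of genes did not overlap there. That difference was −0.48 ± 0.160 and not called (adjusted p = 0.225). Under 150 µg/d the genotypes overlapped, with a difference of −0.30 (interval −0.63 to 0.04). In order of mean level, uninfused WT (30.2 RPKM), uninfused Gcg KO (28.6) and WT at 30 µg/d (28.0) overlapped one another, as did WT at 150 µg/d (21.5), Gcg KO at 30 µg/d (20.2) and Gcg KO at 150 µg/d (17.6).

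Aox3, the more liver-restricted of the paralogs in the mouse, was the more abundant, with group means of its ratio to Aox1 between 8.63 and 18.9. Both genes had lower means at 150 µg/d than with no infusion in each genotype. In Gcg KO liver at 30 µg/d the mean of Aox1 was below its uninfused level and that of Aox3 above, with neither difference called. For Aox3 it was 0.40 on the log2 scale (interval −0.12 to 0.93, adjusted p = 0.602), and the groups overlapped. Uninfused Gcg KO libraries had 183, 346 and 343 RPKM, with library 4 the low one, against 299, 237 and 248 RPKM in uninfused WT libraries. These groups overlapped, with a difference of 0.10 on the log2 scale (interval −0.46 to 0.67). Gcg KO libraries 11 to 14 at 30 µg/d had 399, 360.4, 306 and 424 RPKM, and Gcg KO libraries 19 to 22 at 150 µg/d had 128, 211, 184 and 167 RPKM. The 2 doses did not overlap, as for 6.29% of all genes tested. Aox3 was lower at 150 than at 30 µg/d, with a log2 fold change of −1.12 ± 0.233 (adjusted p = 0.0329), beside 0.544% of genes called. This call was lost without library 11, 12, 14, 21 or 22 (adjusted p up to 0.114), with no filter on low values (0.0716) and with the 2 groups fitted alone (0.0746). Gcg KO at 150 µg/d overlapped uninfused Gcg KO through library 4 alone, and the difference of −0.71 ± 0.252 was not called (adjusted p = 0.133), nor was it without library 4, at −1.02 (adjusted p = 0.0739).

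In WT liver Aox3 was 218, 298, 298 and 258 RPKM at 30 µg/d and 134, 191, 188 and 327 RPKM at 150 µg/d, overlapping the uninfused libraries at both doses. The WT difference at 150 µg/d was −0.38 (interval −0.91 to 0.14). Under 30 µg/d every Gcg KO library exceeded every WT library in Aox3, with a difference of 0.47 ± 0.233 that was not called (adjusted p = 0.429). Of all genes tested, 6.32% did not overlap and 0.328% were called in that comparison. By mean level the groups ran from Gcg KO at 30 µg/d (373 RPKM) through uninfused Gcg KO (291), WT at 30 µg/d (268), uninfused WT (261) and WT at 150 µg/d (210.1) to Gcg KO at 150 µg/d (173). Each neighbour in that order overlapped the next.

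The ratio of Aox3 to Aox1, a comparison chosen after the values were seen, set Gcg KO liver at 30 µg/d apart. In Gcg KO liver the ratio of RPKM values was 10.3 ± 3.75 (SD, n = 3) with no infusion, 18.9 ± 2.91 (n = 4) at 30 µg/d and 9.89 ± 0.987 (n = 4) at 150 µg/d. In WT liver it was 8.63 ± 0.583 (n = 3) with no infusion, 9.68 ± 2.0 (n = 4) at 30 µg/d and 9.68 ± 3.41 (n = 4) at 150 µg/d. The lowest ratio in Gcg KO liver at 30 µg/d was 16.6 and the highest in any other group 14.6. Exact two-sided permutation tests of the log2 ratio gave p = 0.0286 for Gcg KO at 30 µg/d against each of uninfused Gcg KO, WT at 30 µg/d and Gcg KO at 150 µg/d, and an adjusted p of 0.0857 over the 9 comparisons made. With 4 libraries against 3 or 4, 0.0286 is the smallest p these tests gave. The adjustment does not cover the choice of the ratio after the values were seen. Aox1 and Aox3 values summed to 1 row, a sum that is mostly Aox3, gave a log2 fold change of −1.05 ± 0.218 for Gcg KO at 150 against 30 µg/d (adjusted p = 0.0304).

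**Figure D2:**
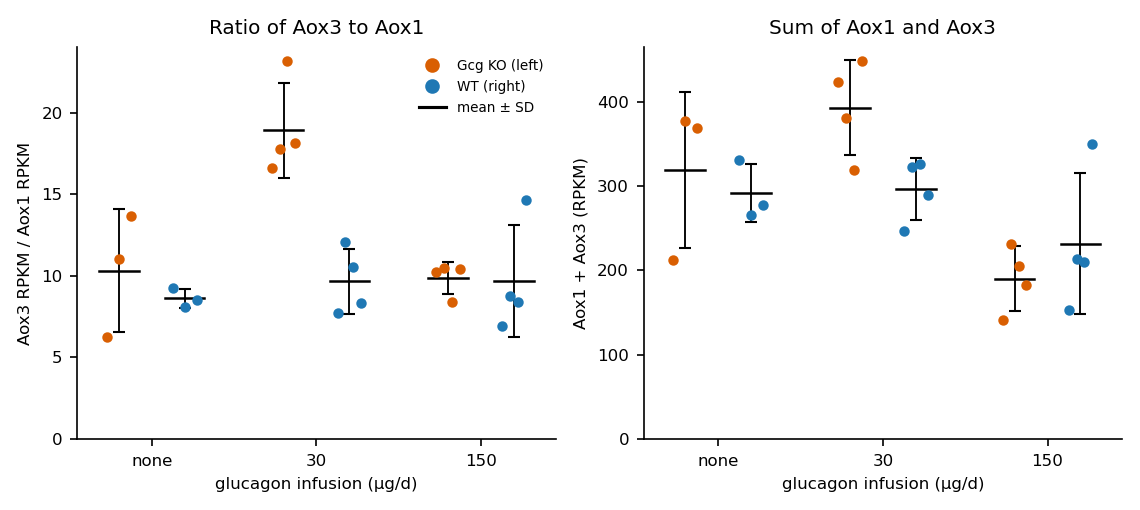
Ratio of Aox3 to Aox1 RPKM (left) and sum of both (right, RPKM) by group, with 1 point per library and the mean ± SD. The 4 Gcg KO libraries at 30 µg/d have ratios of 16.6 to 23.2, above the highest value of 14.6 elsewhere.

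Nampt, the salvage enzyme, was higher in uninfused Gcg KO than in uninfused WT liver. Uninfused Gcg KO libraries 4, 5 and 6 had 37.5, 28.9 and 31.5 RPKM, against 11.9, 13.4 and 13 RPKM in WT libraries 1, 2 and 3. The lowest Gcg KO library was above the highest WT library, and among all other libraries only WT library 10 at 30 µg/d, with 12.9 RPKM, was as low as the uninfused WT ones. The log2 fold change was 1.28 ± 0.241 (adjusted p = 0.0182), the 25th smallest p. The call was lost without library 1, 2, 3 or 4 (adjusted p = 0.0599, 0.0583, 0.0855 and 0.102) and without libraries 4 and 13 (0.0776), while the fold change stayed between 1.18 and 1.36 without each library in turn. An exact permutation test of 3 libraries against 3 gave p = 0.1 for Nampt and for Nnmt, the smallest it allows.

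Summed markers of several liver cell types did not overlap between the genotypes in the same comparison. Of all single genes tested, 1.54% were called there and 24.8% had groups that did not overlap. Of 8 endothelial markers, 5 were called higher in uninfused Gcg KO liver (Pecam1, Stab2, Lyve1, Cdh5 and Tek, at log2 fold changes of 0.36 to 1.03), and none was called lower. The 8 summed to 125 to 128 RPKM in uninfused Gcg KO and 89.8 to 102 RPKM in uninfused WT libraries. Kupffer cell markers summed to 193 to 202 RPKM in uninfused Gcg KO and 126 to 166 RPKM in uninfused WT libraries, with none of 8 called. Without overlap too, stellate cell and fibroblast markers summed to 122 to 124 RPKM in uninfused Gcg KO and 87.2 to 99.0 RPKM in uninfused WT libraries, and cholangiocyte markers to 60.3 to 177 RPKM in uninfused Gcg KO and 16.4 to 32.8 RPKM in uninfused WT libraries. The cholangiocyte sums differed more than the list did. Mean log2(RPKM + 1) of those markers was 1.61 to 2.06 in uninfused Gcg KO and 1.25 to 1.49 in uninfused WT libraries. Of the 5 listed, 3 were tested, with a median log2 fold change of 0.12. Hepatocyte markers summed to 45177 to 72087 RPKM in uninfused Gcg KO and 39769 to 44592 RPKM in uninfused WT libraries. None of these 3 lists had a called gene. Lymphocyte and neutrophil markers overlapped between the genotypes. In Gcg KO liver at 150 µg/d, 3 endothelial markers (Pecam1, Cdh5 and Tek) were called lower than with no infusion and the 8 summed to 97.9 to 117 RPKM. Hepatocyte markers summed to 30104 to 44785 RPKM there, all below the uninfused Gcg KO libraries, with none of 5 called. The median log2 fold change was −0.55 for those 5 and −0.37 for the 8 endothelial markers. Sums of Kupffer cell, stellate cell and cholangiocyte markers overlapped. Of all genes tested, 2.72% were called in that comparison and 13.5% did not overlap. Without libraries 4 and 13, none of the 5 endothelial calls in uninfused Gcg KO against WT held. Of the 3 in Gcg KO liver at 150 µg/d only that of Tek held (adjusted p = 0.0172). In that refit all 8 endothelial markers had an unadjusted p under 0.05 in uninfused Gcg KO against WT. Their median log2 fold change was 0.39, and 0.38 with all libraries. At 150 µg/d 4 of the 8 had such a p, with a median of −0.28. The part of these cells in the Nampt and Nnmt results was not tested.

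With glucagon infused at 150 µg/d, Nampt of the 2 genotypes overlapped. Gcg KO libraries at 150 µg/d had 25.9, 28.0, 21.2 and 19.8 RPKM, all below the uninfused Gcg KO libraries. WT libraries at 150 µg/d had 23.5, 26.2, 17.4 and 14.7 RPKM, all above the uninfused WT libraries. Of all genes tested, 13.5% had groups without overlap in that Gcg KO comparison and 14.5% in that WT comparison. Neither response was called, at −0.45 ± 0.226 in Gcg KO (adjusted p = 0.297) and 0.60 ± 0.226 in WT liver (adjusted p = 0.291), nor was their difference of −1.05 ± 0.319 (adjusted p = 0.268). At 30 µg/d Nampt had 29.4, 33.1, 41.8 and 24.5 RPKM in Gcg KO libraries, the highest in library 13, and 20.6, 16.7, 29.2 and 12.9 RPKM in WT libraries. These 2 groups overlapped, and their difference was 0.70 ± 0.209 (adjusted p = 0.161). Under 150 µg/d the difference between genotypes was 0.23 (interval −0.21 to 0.66), in a comparison where 0.0259% of genes were called. By mean level the groups ran from uninfused Gcg KO (32.7 RPKM) through Gcg KO at 30 µg/d (32.2), Gcg KO at 150 µg/d (23.8), WT at 150 µg/d (20.5) and WT at 30 µg/d (19.9) to uninfused WT (12.8), and each neighbour in that order overlapped the next.

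Nadk2, which makes NADP in mitochondria, was the steady member. Uninfused Gcg KO libraries had 46.3, 46.6 and 39.8 RPKM, against 43.0, 58.9 and 54.0 RPKM in uninfused WT libraries. At 30 µg/d, Gcg KO libraries had 45.0, 50.8, 49.8 and 41.0 RPKM and WT libraries 60.4, 57.2, 48.8 and 46.8 RPKM. At 150 µg/d, Gcg KO libraries had 33.1, 56.1, 52.6 and 43.4 RPKM and WT libraries 62.2, 59.5, 37.4 and 47.5 RPKM. The groups overlapped in each of the 9 comparisons of 2 groups, and Nadk2 was called in none of the 11 contrasts. Its largest log2 fold change among the 5 main comparisons was −0.22, for uninfused Gcg KO against WT (interval −0.61 to 0.17), and the mean was below WT at each infusion.

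**Figure D3:**
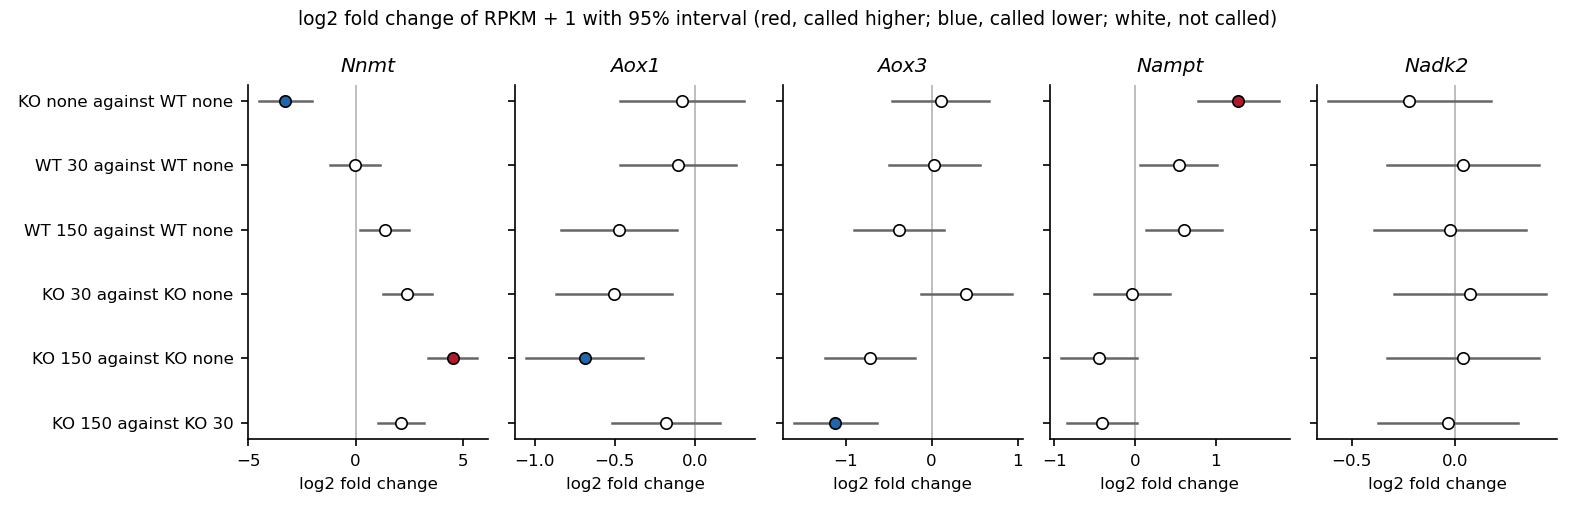
Log2 fold changes of the 5 genes, with 95% intervals from limma, in the 5 main comparisons and in Gcg KO liver at 150 against 30 µg/d. Nnmt at 150 µg/d in Gcg KO liver lies at 4.51 and Nnmt in uninfused Gcg KO against WT at −3.27, while every interval of Nadk2 includes 0.

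Over the 5 main comparisons, 2 of the 5 members were called in uninfused Gcg KO against WT (Nnmt lower, Nampt higher), where 1.54% of all genes were, and 2 in Gcg KO at 150 µg/d against none (Nnmt higher, Aox1 lower), where 2.72% were. None was called by limma at 30 or 150 µg/d in WT or at 30 µg/d in Gcg KO liver. In those comparisons 1, 3 and 2 members had an unadjusted limma p under 0.05, as did 657, 1405 and 1174 of all 11590 genes. An exact permutation test gave such a p for 0, 1 and 1 members. Unadjusted limma p-values under 0.05 numbered 2025 genes in uninfused Gcg KO against WT and 2136 in Gcg KO at 150 µg/d against none. At 30 µg/d in WT liver no gene of the 11590 was called (0%). No member was called for WT at 150 against 30 µg/d, where 0.00863% of genes were called and 3.79% did not overlap, nor between genotypes at either dose, where 1.48% of genes did not overlap at 150 µg/d. Unadjusted p-values under 0.05 in those 3 comparisons numbered 2, 2 and 0 members, WT at 150 against 30 µg/d first, then the genotypes at 30 and at 150 µg/d. Over all 11590 genes they numbered 941, 1383 and 231 in the same order. For the differences between the genotypes' responses to 30 and 150 µg/d, in which 0.00863% and 0% of genes were called, 1 and 2 members had an unadjusted p under 0.05. Over all genes, 1045 and 1187 had such a p. For Gcg KO at 150 against 30 µg/d, 1 member was called (Aox3 lower), where 0.544% of all genes were. There 2 members had an unadjusted p under 0.05, as did 1492 of all genes.

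Nnmt and Nampt compete for nicotinamide, and their ratio, likewise chosen after the values were seen, restates both results, since Nnmt was lower and Nampt higher in uninfused Gcg KO liver. The Nnmt to Nampt ratio of RPKM values was 0.549 ± 0.5 (SD, n = 3) in uninfused Gcg KO liver and 8.61 ± 1.25 (n = 3) in uninfused WT liver. At 30 µg/d it was 1.92 ± 0.434 in Gcg KO and 6.27 ± 3.33 in WT liver (n = 4 each). At 150 µg/d it was 12.1 ± 5.44 in Gcg KO and 14.9 ± 6.13 in WT liver (n = 4 each). Exact permutation tests of the log2 ratio gave p = 0.0286 for both doses against no infusion in Gcg KO liver, between those doses, and between genotypes at 30 µg/d, each with an adjusted p of 0.0643 over 9 comparisons. That adjustment leaves out the choice of the ratio. Uninfused genotypes did not overlap either, and p was 0.1, the smallest for 3 against 3. Over the 22 libraries Pearson's r between log2 Nnmt and Nampt was −0.47 and Spearman's rho −0.55, and r was −0.32 without the 2 libraries farthest from the Nnmt median. After the group means were removed r was −0.26.

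**Figure D4:**
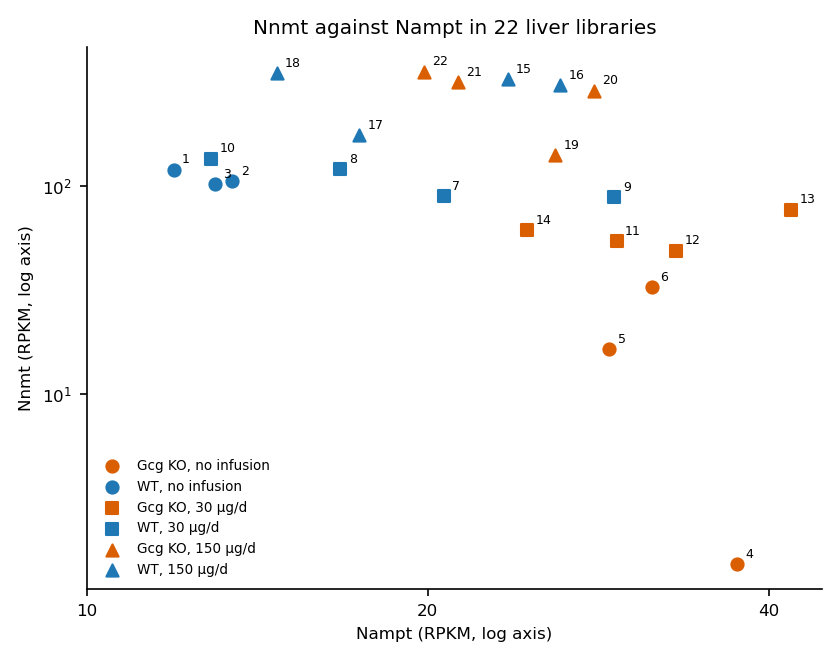
Nnmt against Nampt in each of the 22 libraries, in RPKM, by genotype and infusion. Uninfused Gcg KO libraries lie at 1.52 to 32.8 RPKM of Nnmt and 28.9 to 37.5 RPKM of Nampt, and uninfused WT libraries at 103 to 120.1 RPKM of Nnmt and 11.9 to 13.4 RPKM of Nampt.

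Among 10 tested genes of NAD salvage and synthesis other than the members, 1 rose in uninfused Gcg KO against WT liver. Nmrk1, the nicotinamide riboside kinase that feeds the same mononucleotide as Nampt, had 24.6 ± 3.52 RPKM in Gcg KO and 11.8 ± 0.676 RPKM in WT liver (SD, n = 3 each), a log2 fold change of 0.99 (adjusted p = 0.0317). None fell, and the median of the 10 was −0.11, beside 0.01 over all genes tested, of which 1.54% were called. In Gcg KO liver at 150 µg/d, 1 rose and none fell. Slc25a51, the carrier that brings NAD into mitochondria, had 23.3 ± 6.39 RPKM there and 8.31 ± 1.71 RPKM in uninfused Gcg KO liver (log2 fold change 1.36, adjusted p = 0.0174). The median of the 10 was 0.13, beside −0.04 over all genes, of which 2.72% were called. Neither call held without libraries 4 and 13 (Nmrk1 0.88, adjusted p = 0.126, and Slc25a51 1.30, adjusted p = 0.0751).

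Among 8 tested genes of the route from tryptophan to NAD, 2 fell and none rose in uninfused Gcg KO against WT liver. Tdo2, tryptophan dioxygenase and the entry to the route, had 510.1 ± 102 RPKM in Gcg KO and 931 ± 74.1 RPKM in WT liver (log2 fold change −0.88, adjusted p = 0.0319). Haao, which forms the precursor of quinolinate, fell by 0.47 on the log2 scale (adjusted p = 0.0351). The median of the 8 was −0.43, beside 0.01 over all genes tested, of which 1.54% were called. In Gcg KO liver at 150 µg/d, 1 rose, Acmsd, the decarboxylase that diverts the pathway's intermediate away from NAD. It had 11 ± 5.75 RPKM at that dose and 2.34 ± 0.116 RPKM with no infusion (log2 fold change 1.64, adjusted p = 0.0465). The list's median was 0.35, beside −0.04 over all genes tested, of which 2.72% were called. Without libraries 4 and 13 none of the 3 was called (adjusted p = 0.149 for Tdo2, 0.176 for Haao and 0.0826 for Acmsd). None of these genes was called at 30 µg/d in either genotype or at 150 µg/d in WT liver, and in each of those comparisons 1 of the 8 had an unadjusted p under 0.05.

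None of 15 tested NAD-consuming enzymes, the sirtuins, PARP enzymes and NAD glycohydrolases that release nicotinamide, was called by limma in any of the 5 main comparisons. Those with an unadjusted p under 0.05 numbered 4 in uninfused Gcg KO against WT, 0 and 1 at 30 and 150 µg/d in WT, and 2 and 1 at 30 and 150 µg/d in Gcg KO liver. The deacetylase Sirt7 had 14.3 ± 3.07 RPKM in uninfused Gcg KO and 18.4 ± 0.655 RPKM in uninfused WT liver (adjusted p = 0.133). Parp4 had 3.25 ± 0.496 RPKM in Gcg KO liver at 30 µg/d and 4.36 ± 0.115 RPKM with no infusion (adjusted p = 0.268).

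Among 9 tested genes of the molybdenum cofactor and its other enzymes, 2 fell in uninfused Gcg KO against WT liver and 2 fell in WT liver at 150 µg/d. Of all genes tested, 1.54% and 0.293% were called in those comparisons. The median of the 9 was −0.29 and −0.10, beside 0.01 and −0.02 over all genes. An unadjusted p under 0.05 was found for 5 and 2 of the 9. Mocos, the sulfurase that activates the cofactor of aldehyde oxidases and xanthine dehydrogenase, fell in both comparisons. It had 14.6 ± 1.02 RPKM in uninfused Gcg KO liver and 14.1 ± 1.21 RPKM in WT liver at 150 µg/d, against 21.7 ± 0.777 RPKM in uninfused WT liver, the group both comparisons share (log2 fold changes −0.55 and −0.60, adjusted p = 0.0103 and 0.00625). Suox, sulfite oxidase, fell by 0.70 on the log2 scale in uninfused Gcg KO liver (adjusted p = 0.0419), and Gphn, gephyrin, which inserts molybdenum, fell by 0.54 in WT liver at 150 µg/d (adjusted p = 0.0456). Without libraries 4 and 13, Mocos and Suox were not called in uninfused Gcg KO against WT (adjusted p = 0.0514 and 0.143), while both calls in WT liver at 150 µg/d held. None was called in Gcg KO liver at 150 µg/d, where Aox1 fell, and 4 of the 9 had an unadjusted p under 0.05 there.

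Among 12 tested genes of methyl group supply and other small-molecule methyltransferases, 1 fell in uninfused Gcg KO against WT liver and 3 rose in Gcg KO liver at 150 µg/d. Gnmt, glycine N-methyltransferase, which uses S-adenosylmethionine as Nnmt does, was called in both. Its log2 fold changes were −1.20 in uninfused Gcg KO against WT (adjusted p = 0.0325) and 1.28 in Gcg KO at 150 µg/d (adjusted p = 0.0139). In WT liver at 150 µg/d Gnmt was at 0.10 (interval −0.43 to 0.63), where Nnmt was at 1.35. Mat1a, which makes S-adenosylmethionine in liver, rose by 1.10 (adjusted p = 0.0298) and As3mt, the arsenic methyltransferase, by 0.87 (adjusted p = 0.00204) in Gcg KO liver at 150 µg/d. The median of the 12 was −0.03 and −0.04 in those comparisons, beside 0.01 and −0.04 over all genes tested, of which 1.54% and 2.72% were called. Without libraries 4 and 13, Gnmt was not called in uninfused Gcg KO against WT (−1.21, adjusted p = 0.0859), all 3 calls in Gcg KO liver at 150 µg/d held, and As3mt was also called in WT liver at 150 µg/d (0.55, adjusted p = 0.0476). Of 8 cAMP and fasting responders, Pck1 and Tat, enzymes of gluconeogenesis and tyrosine breakdown, rose in Gcg KO liver at 150 µg/d, by 1.62 and 2.0 on the log2 scale (adjusted p = 0.0161 each), of which Pck1 was called without libraries 4 and 13 (adjusted p = 0.0242) and Tat was not (0.0667). None of the 8 was called in uninfused Gcg KO against WT liver, where 1 had an unadjusted p under 0.05 and the median was −0.57.

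**Figure D5:**
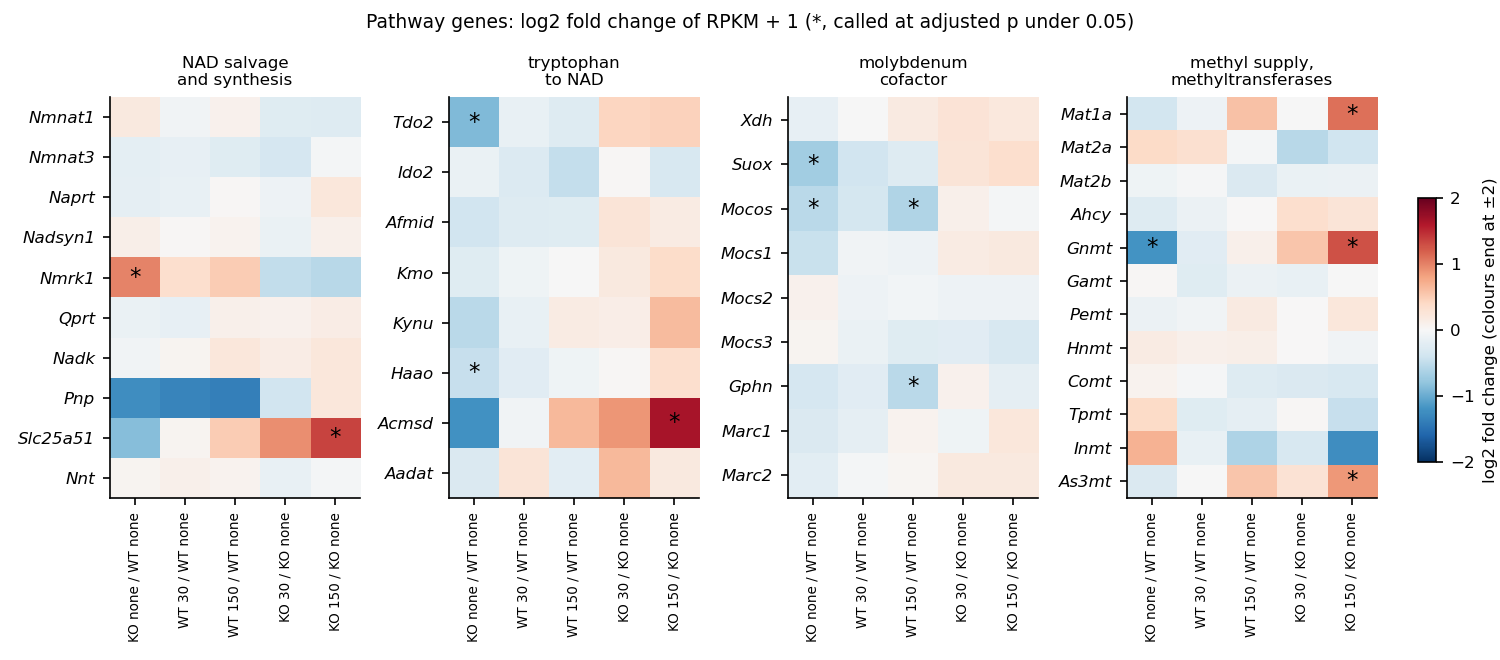
Log2 fold changes of every tested gene of 4 of the lists (columns are the 5 main comparisons, red higher and blue lower, called genes marked with a star). Gnmt is lower in uninfused Gcg KO against WT liver (−1.20) and higher in Gcg KO liver at 150 µg/d (1.28), and Nmrk1 is higher in uninfused Gcg KO liver (0.99).

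The genes whose log2 levels were most like those of each member over the 22 libraries differed from member to member. Among 10985 candidates, Nnmt was most like Tspan31 (Pearson's r = 0.889), Dpy19l1 (0.889), Ggt6 (0.885), Adk, adenosine kinase (0.87), and Oat, ornithine aminotransferase (0.869). Nampt was most like Cry1, a repressor of the circadian clock (r = 0.856), Gpr182 (0.848), Lrrc28 (0.822), Rapgef5 (0.802) and Nmrk1 (0.802). Aox1 was most like Bhlhe40, a repressor of the clock (0.833), Rhbdd3 (0.809), Cyr61 (0.778), Ephx1, epoxide hydrolase (0.775), and Pi4kb (0.768). Genes most like Aox3 included Pdilt (0.865), Epb4.1l4b (0.846), Ces3a, a carboxylesterase (0.839), and Pygl, liver glycogen phosphorylase (0.834).

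Genes most like Nadk2 included Ugp2 (0.92), Rnf13 (0.904), Tspan12 (0.896) and Rdx (0.888). With group means removed, the r of Nadk2 with these 4 was 0.889 to 0.919, and that of Nnmt with its 5 was 0.523 to 0.777. All these values share the libraries and their depth, and the highest of many r values are high partly by selection. Between Aox1 and Aox3 r was 0.38 over the 22 libraries.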

How the data were processed

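Liver polyA RNA was selected and strand-specific libraries were prepared, per the labels' protocols. The authors deposited 1 table of RPKM values with 24475 genes and 22 library columns, and no replicates were pooled. CASAVA 1.8.2, FastQC and the build GRCm38 are named in the submitters' processing notes; the aligner, counter and annotation, and whether counting used strand, were not given in the sources used here. RPKM holds no read counts. Depth was estimated from steps between low values of 4378 genes, as the depth at which the largest share came out whole within 0.1 read. That share was 66.2 to 71.5%, which was too incomplete for a count test. Chance gives 20% at a depth fixed beforehand, which is not the level for a depth chosen to raise the share.

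Groups came from the titles. Genes with a mean of at least 0.5 RPKM were fitted as log2(RPKM + 1) with limma 3.58.1 in R 4.3.3, with 6 groups in one fit, a mean-variance trend, 16 residual and 3.18 prior degrees of freedom, and Benjamini-Hochberg adjustment over 11590 genes in each of 11 contrasts. A fold change on this scale understates that of low genes. The fit was tested on simulated data. Alternatives were a pseudocount of 0.1, no filter, 2 other scalings, each library left out, libraries 4 and 13 left out, the groups alone, Aox1 and Aox3 summed, and exact two-sided permutation tests. The gene lists and markers were also refitted without libraries 4 and 13, an alternative chosen after seeing the data.

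The members, gene lists and tests were chosen with earlier results of these data known. The genes named are the 5 members, the 5 genes most like each member by Pearson's r, and, of each pathway list, up to 6 genes called in a main comparison or otherwise the 2 with the smallest p. The values of 2 of the genes so chosen are not reported here. Ratios were added after the values were seen. Shared runs were counted in GENCODE transcripts on GRCm38.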

Additional observations from a re-analysis of the deposited data

Results flagged for a closer look

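Nampt at 150 µg/d of glucagon lay on opposite sides of the uninfused level in the 2 genotypes, though limma called neither response (−0.45, adjusted p = 0.297 in Gcg KO and 0.60, adjusted p = 0.291 in WT). All 4 Gcg KO libraries at that dose were below all 3 uninfused Gcg KO libraries, while all 4 WT libraries at that dose were above all 3 uninfused WT libraries. Of all genes tested, 13.5% in Gcg KO and 14.5% in WT liver also had groups without overlap, in either direction, at that dose against no infusion. The difference of responses, Gcg KO minus WT, was −1.05 on the log2 scale in limma and did not pass the test (adjusted p = 0.268). It stayed between −1.19 and −0.93 without each of the 14 libraries in turn, with adjusted p-values of 0.191 to 0.499.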

How the results depend on the processing

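Under alternatives other than leaving out single libraries, 158 of 175 values of the members in the main comparisons kept their direction and side of the threshold. Most of these results were not called in the main fit. Of the rest, 10 no longer passed 0.05, 2 newly passed it and 5 changed direction. Fitted with the 2 groups alone, Nnmt was unchanged in size but not called in uninfused Gcg KO against WT (−3.27) or in Gcg KO at 150 µg/d (4.51), and neither was Aox1 at 150 µg/d (−0.69). Aox1 in Gcg KO at 150 µg/d was also not called with no filter (−0.69) or without libraries 4 and 13 (−0.67), and neither was Nampt in uninfused Gcg KO against WT without those libraries (1.18). Fewer libraries or more genes tested enter these fits. Exact permutation tests on RPKM gave differences of −92.6 for Nnmt and 19.9 for Nampt in uninfused Gcg KO against WT (p = 0.1 each, the smallest 3 against 3 allows) and 257.8 for Nnmt in Gcg KO at 150 µg/d (p = 0.0571). The same exact tests gave an unadjusted p under 0.05 for Nnmt in Gcg KO at 30 µg/d (43.6, p = 0.0286) and Aox1 in WT at 150 µg/d (−8.72, p = 0.0286), which limma did not call.

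Summing Aox1 with the more abundant Aox3 gave the direction of Aox3 by construction, at 0.092 in uninfused Gcg KO against WT, 0.020 in WT at 30 µg/d, 0.33 in Gcg KO at 30 µg/d, 0.40 in Gcg KO against WT at 30 µg/d and 0.31 for the difference of responses to 30 µg/d, and a fall of −0.72 in Gcg KO at 150 µg/d that was not called. Quantile normalization turned 3 values near 0, Nnmt in WT at 30 µg/d (0.013), Nadk2 in WT at 150 µg/d (0.0109) and the Nadk2 difference of responses to 30 µg/d (−0.0065). The cause was not tested.

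Genes called in uninfused Gcg KO against WT numbered 179, and 22 without libraries 4 and 13. In Gcg KO at 150 µg/d they numbered 315, with 93 without those libraries and 1 with the groups alone. In Gcg KO at 30 µg/d they numbered 10, with 3 and 1 under the same alternatives. In WT at 150 µg/d they numbered 34, with 8 at a pseudocount of 0.1 and 17 without the filter, and in WT at 30 µg/d 0, with 1 for the groups alone. At an unadjusted p under 0.05, 657 genes passed in WT at 30 µg/d and 1187 in the difference of responses to 150 µg/d, where limma called 0.

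With each library left out in turn, the log2 fold changes in uninfused Gcg KO against WT ranged from −4.06 to −2.18 for Nnmt, 1.18 to 1.36 for Nampt, −0.15 to 0.0047 for Aox1 and −0.051 to 0.41 for Aox3. In WT at 30 µg/d they ranged from −0.15 to 0.053 for Nnmt, −0.034 to 0.13 for Aox3 and −0.088 to 0.13 for Nadk2, and in WT at 150 µg/d from −0.15 to 0.12 for Nadk2. In Gcg KO at 30 µg/d they ranged from 1.32 to 3.19 for Nnmt and −0.17 to 0.081 for Nampt, and at 150 µg/d from −0.80 to −0.55 for Aox1 and −0.059 to 0.19 for Nadk2. Between genotypes at 150 µg/d they ranged from −0.33 to 0.18 for Nnmt and −0.42 to 0.0083 for Aox3. For WT at 150 against 30 µg/d they ranged from −0.11 to 0.26 for Nampt and −0.16 to 0.078 for Nadk2. For Gcg KO at 150 against 30 µg/d they ranged from 1.95 to 2.40 for Nnmt, −1.22 to −0.98 for Aox3 and −0.13 to 0.12 for Nadk2. Nnmt differences of responses, Gcg KO minus WT, ranged from 1.36 to 3.23 at 30 µg/d and 2.08 to 3.95 at 150 µg/d. Nadk2 differences of responses ranged from −0.060 to 0.16 at 30 µg/d and −0.076 to 0.21 at 150 µg/d. Genes called ranged from 9 (without library 3) to 294 (without library 6) in uninfused Gcg KO against WT, 61 (without 4) to 585 (without 19) in Gcg KO at 150 µg/d, 1 (without 4) to 33 (without 6) in Gcg KO at 30 µg/d and 0 (without 3) to 48 (without 17) in WT at 150 µg/d.

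No paired analysis was possible because the running numbers in the titles are unique to each library and no groups share any. With 3 or 4 libraries a group and no read counts, small differences such as those of Nadk2 could not be told from the spread between libraries.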
